A study of Mus musculus with 24 samples.

Results

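The glutathione S-transferase genes Gstm1, Gstm2, Gstm5, Gsta3, Gsta4, Gsto1 and Gstt1 were followed across mouse lungs given bleomycin or saline. All probe sets that the array annotation gives to these 7 genes were taken, which made 12 probe sets of the 12422 on the array that are not controls, and 7 genes of the 8251 with a probe set of their own. The array was an Affymetrix murine expression array that carried total RNA of lungs harvested and frozen from C57BL/6J or BALB/c mice. The mice had received bleomycin, a DNA-damaging drug used to produce lung fibrosis, at 1.5 U per kg into the trachea, or saline by the same route. Lungs were taken at 24 h, 72 h or 14 d, so that 2 strains, 2 treatments and 3 times made 12 groups, each with 2 arrays marked a and b, 24 in all. Whether the pair came from different animals is not in the labels, so p-values measure only the spread between these arrays, which may be technical, and the number of arrays limits the precision. The series title names genetic sensitivity to lung fibrosis, and the comparisons ask where the treatment, the strain and the time moved these genes.

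Glutathione S-transferases join the tripeptide glutathione to electrophilic compounds, among them drugs, epoxides and the aldehydes formed when lipids are oxidised, and so make them more soluble and easier to export. The soluble enzymes fall into classes named by Greek letters: Gstm1, Gstm2 and Gstm5 belong to the mu class, Gsta3 and Gsta4 to alpha, Gstt1 to theta and Gsto1 to omega. In lung, club cells and other epithelial cells are known sites of such enzymes, and the transcription factor Nrf2 raises several of the genes through antioxidant response elements in their promoters.

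The promoters of 3 members are shown: Gsta3 and Gsto1, the members called in BALB/c lungs at 14 d by a probe set that carries no mark for shared probes, and Gstm5, which held the most matches to the motifs searched. Each sequence is the 250 bases before the RefSeq transcription start on the plus strand of build GRCm38.p6, 5′ to 3′, and capitals mark motif matches. The windows are chr1:21240335-21240584 for Gsta3, chr3:107895604-107895853 for Gstm5 and chr19:47854723-47854972 for Gsto1.
Gsta3: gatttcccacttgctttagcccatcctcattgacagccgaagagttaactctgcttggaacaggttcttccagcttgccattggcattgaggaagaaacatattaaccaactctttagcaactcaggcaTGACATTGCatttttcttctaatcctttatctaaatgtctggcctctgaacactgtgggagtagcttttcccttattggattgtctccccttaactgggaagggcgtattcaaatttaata
Gstm5: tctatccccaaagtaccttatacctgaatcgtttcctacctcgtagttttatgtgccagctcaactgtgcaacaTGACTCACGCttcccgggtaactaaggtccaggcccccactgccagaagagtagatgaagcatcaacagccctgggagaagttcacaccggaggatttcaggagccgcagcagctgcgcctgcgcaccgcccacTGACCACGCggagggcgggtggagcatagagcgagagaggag
Gsto1: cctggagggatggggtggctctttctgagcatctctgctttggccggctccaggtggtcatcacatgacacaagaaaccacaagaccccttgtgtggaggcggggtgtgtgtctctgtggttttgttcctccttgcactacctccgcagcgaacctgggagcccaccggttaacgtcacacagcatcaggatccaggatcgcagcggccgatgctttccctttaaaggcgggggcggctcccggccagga
Both strands were searched for the core of the antioxidant response element (TGACNNNGC), the core of the xenobiotic response element (GCGTG) and the AP-1 site (TGANTCA). In Gsta3 the antioxidant response element core TGACATTGC lay 121 to 113 bases before the start. In Gstm5 the core TGACCACGC lay 42 to 34 bases before the start and overlapped a xenobiotic core read on the minus strand at 38 to 34, and the AP-1 letters TGACTCA at 176 to 170 overlapped another at 171 to 167. The Gsto1 window held none of these letters, and Gstm1 held the xenobiotic core, at 76 to 72 bases before one RefSeq start and so at 231 to 227 before another. Of the 6 members with a promoter in the RefSeq table, all except Gsta4, 2 held the antioxidant core, 2 the xenobiotic core and 1 the AP-1 letters. Counted by gene in the same way, 3112, 8338 and 2113 of the 27025 genes in that table did. By promoter the shares were 10.2%, 28.2% and 6.75% of 32851. A match describes letters and not a bound site.

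Values are linear intensities, and log2 changes were fitted on log2(intensity + 92), which understates the change of dim probe sets. Strain genes ran in reverse on the 4 saline 72 h arrays: outside them H2-Ea, which encodes an MHC class II chain, lay between 25.6 and 166 on 10 arrays of C57BL/6J and between 2917 and 6068 on 10 of BALB/c. At saline 72 h its values were 3622 and 4821 under the C57BL/6J label and 48.3 and 89.5 under the BALB/c label, so 72 h effects are given first as the mean of both strains, which does not depend on those labels. The 2 C57BL/6J saline 24 h arrays, the only ones with a title ending in s1, also stood apart, with a highest intensity of 43230 and 78641 against 6888 to 21462 elsewhere, and calls of members that were lost without them are named with their values. C57BL/6J bleomycin 14 d array a, the only one with a title ending in s2a, had the lowest median intensity of all arrays (314). Without it the C57BL/6J calls of Gsta3 and Gstt1 at 14 d were lost, as were the members' calls over time in C57BL/6J. The descriptions of the BALB/c saline arrays name bleomycin at 72 h and either agent at 24 h, and the titles were followed. In whole lung, fewer cells of a type and less RNA per cell cannot be told apart.

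Of the 12 probe sets 11 passed the filter for dim probe sets, and all 7 genes had at least 1. The one left out, a Gstm5 set with the ending _f_at, read 16.4 to 114 and was above the filter of 225.7 on 0 of 24 arrays. On Affymetrix arrays the ending _f_at marks probes shared by a family of sequences and _r_at a relaxed choice of probes, so the _f_at sets of Gstm1 and Gstm5 and the _r_at sets of all 3 mu genes may read other mu genes and are uncertain as measures of 1 gene. The single probe sets of Gsta3, Gsta4, Gsto1 and Gstt1 carry no such mark.

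Gsto1, the omega-class enzyme that works as a thiol transferase and reduces dehydroascorbate, gave the widest separation of groups among the members. It was higher in C57BL/6J than in BALB/c lungs after bleomycin and after saline at 24 h and 14 d, and in BALB/c lungs at 14 d it was higher after bleomycin than after saline. In the order of its 12 group means, 6 of 11 neighbouring pairs overlapped between their arrays, against 8 to 10 for the other members. This was counted for members only, so how common such a number is over all probe sets is not known.

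In BALB/c lungs at 14 d Gsto1 read 1044 and 1000 on the saline arrays and 2131 and 2394 on the bleomycin arrays. The bleomycin arrays lay well above the saline arrays and the groups did not overlap. Gsto1 rose by 1.08 ± 0.13 on the log2 scale (SE, limma adjusted p = 2.50e-04). In C57BL/6J lungs at the same time it read 4054 and 3667 after saline and 3812 and 3391 after bleomycin, groups that overlapped, with a difference of -0.10 ± 0.13 (adjusted p = 0.722). The difference between these effects, C57BL/6J minus BALB/c, was -1.18 ± 0.19 (adjusted p = 0.00305). Both calls kept their side of the threshold when each of the 24 arrays was left out in turn. They rest on the BALB/c saline 14 d arrays as the control, the lowest of all 24 for this gene. With the saline 24 h arrays of each strain as the control at 14 d, an alternative chosen after seeing the data, the BALB/c effect was 0.10 (adjusted p = 0.710) and the difference between strains -0.15 (adjusted p = 0.702).

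At 24 h Gsto1 read 2034 and 2176 after saline in BALB/c lungs and 3132 and 2960 after bleomycin. In C57BL/6J lungs it read 3604 and 3865 after saline and 4837 and 4266 after bleomycin. In both strains every bleomycin array lay above every saline array, and neither effect was called (0.51 ± 0.13, adjusted p = 0.0991 in BALB/c, and 0.28 ± 0.13, adjusted p = 0.341 in C57BL/6J). The 24 h effects differed by -0.24 ± 0.19 between strains (adjusted p = 0.719).

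At 72 h Gsto1 read 3292 and 2659 on the BALB/c bleomycin arrays and 4724 and 4954 on the C57BL/6J bleomycin arrays. The saline arrays read 4390 and 4341 where labelled BALB/c and 1849 and 1960 where labelled C57BL/6J, so the strain order among the saline arrays was the opposite of that at 24 h and 14 d. Averaged over both strains Gsto1 rose by 0.38 ± 0.09 (adjusted p = 0.0323). The mean effect was 0.65 (adjusted p = 3.32e-04) when the 24 h and 14 d saline arrays replaced those of 72 h. The mean call was lost when any one of 9 arrays was left out (adjusted p 0.0506 to 0.155), and without BALB/c bleomycin 72 h array a the effect was 0.30. As labelled, Gsto1 rose by 1.30 ± 0.13 in C57BL/6J (adjusted p = 7.36e-06) and fell by 0.55 ± 0.13 in BALB/c (adjusted p = 0.0487). Without the saline 72 h arrays these became 0.34 (adjusted p = 0.110) and 0.96 (adjusted p = 9.48e-04), and with their strain labels exchanged 0.15 (adjusted p = 0.665) and 0.61 (adjusted p = 0.113), so the direction in BALB/c turned on those arrays. The labelled BALB/c call was also lost with quantile normalization (0.0686), no filter (0.0505), no variance trend (0.0677) or without the C57BL/6J saline 24 h arrays (0.0567). Of the 24 fits that left out 1 array, 20 lost it too.

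**Figure D1:**
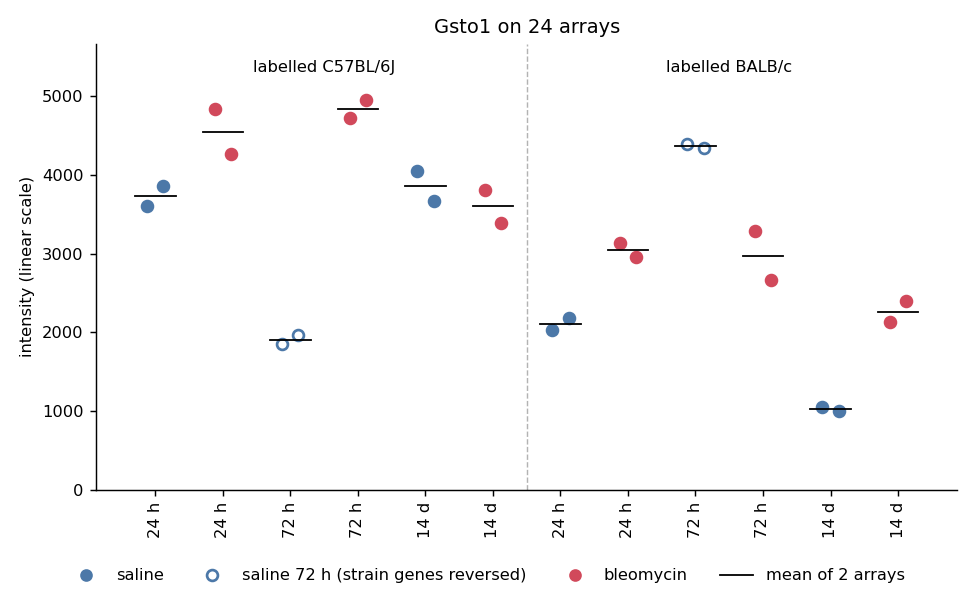
Gsto1 intensity (linear scale, vertical axis) on each of the 24 arrays by labelled strain, treatment and time, with a line at the mean of 2 arrays. The 10 C57BL/6J arrays outside saline 72 h read 3391 to 4954 and the 10 BALB/c arrays 1000 to 3292, while the open symbols of saline 72 h sit on the opposite sides.

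After bleomycin, which leaves all saline arrays out, Gsto1 read 3391 to 4954 in C57BL/6J and 2131 to 3292 in BALB/c lungs over the 3 times. Every C57BL/6J array was above every BALB/c array, and the strain difference was 0.63 ± 0.08 (adjusted p = 2.53e-05). After saline at 24 h and 14 d it was 1.31 ± 0.09 (adjusted p = 5.24e-08). Over both strains and all times bleomycin raised Gsto1 by 0.42 ± 0.05 (adjusted p = 5.36e-05), and these 3 calls held with each array left out in turn. Between 24 h and 14 d of bleomycin the level differed by -0.42 ± 0.13 in BALB/c (adjusted p = 0.0604) and by -0.33 ± 0.13 in C57BL/6J (adjusted p = 0.128), neither called. Of 12 macrophage markers tested at 14 d in BALB/c lungs 4 rose, 1 fell and 7 were not called, where 13.2% of genes were called, with a summed intensity of 29084 and 25174 after bleomycin against 22289 and 20643 after saline. In C57BL/6J 3 of 12 rose and 9 were not called (7.74% of genes called), with sums of 57036 and 38110 against 28497 and 25257. Their part in the Gsto1 values was not tested.

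Gsta3, an alpha-class enzyme that in mice conjugates the epoxide of aflatoxin, was lower at 14 d of bleomycin in both strains. In C57BL/6J lungs it read 779 and 876 after saline and 367 and 527 after bleomycin. In BALB/c lungs it read 734 and 707 after saline and 383 and 380 after bleomycin. In each strain both bleomycin arrays lay below both saline arrays. Gsta3 fell by 0.78 ± 0.20 in C57BL/6J (adjusted p = 0.0240) and fell by 0.78 ± 0.20 in BALB/c (adjusted p = 0.0179), and the effects differed by -0.01 ± 0.28 (adjusted p = 0.992). Both calls were close to the threshold. In C57BL/6J the call was lost without bleomycin array a (-0.57, adjusted p = 0.293), saline array a (-0.86, adjusted p = 0.0711) or saline array b (-0.71, adjusted p = 0.137). In BALB/c it was lost without bleomycin array b (-0.77, adjusted p = 0.112), saline array a (-0.75, adjusted p = 0.109) or saline array b (-0.80, adjusted p = 0.0882). With the saline 24 h arrays as the control the C57BL/6J effect was -0.84 (adjusted p = 0.0141) and the BALB/c effect -0.47 (adjusted p = 0.174).

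The change of Gsta3 over time needed no saline array. At 24 h of bleomycin it read 748 and 945 in C57BL/6J and 680 and 681 in BALB/c lungs, above the 14 d arrays of the same strain in all cases. From 24 h to 14 d it fell by 0.81 ± 0.20 in C57BL/6J (adjusted p = 0.0191) and by 0.71 ± 0.20 in BALB/c (adjusted p = 0.0387). The C57BL/6J call was lost without bleomycin 14 d array a (-0.59, adjusted p = 0.262) or bleomycin 24 h array b (-0.66, adjusted p = 0.162), and the BALB/c call without any one of the 4 arrays compared (adjusted p 0.0645 to 0.207) or either saline 14 d array (0.0525). At 24 h the effect of bleomycin was -0.03 ± 0.20 in C57BL/6J and 0.24 ± 0.20 in BALB/c, and at 72 h over both strains -0.12 ± 0.14 (adjusted p = 0.698). The 72 h bleomycin arrays spread widely in C57BL/6J, at 576 and 991, and less in BALB/c, at 597 and 495. Over all times and strains Gsta3 fell by 0.27 ± 0.08 (adjusted p = 0.0357), a call kept in 10 of the 24 fits that left out 1 array and lost without the C57BL/6J saline 24 h arrays (-0.26, adjusted p = 0.0745). Array weights ended the C57BL/6J call at 14 d (adjusted p = 0.162), both calls over time (0.0715 and 0.108) and the overall call (0.0544), and the BALB/c call over time was also lost without the filter (0.0533).

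Markers of airway and alveolar epithelium, which are known sites of these enzymes, are given beside these falls. In BALB/c lungs at 14 d 3 of 9 club cell markers fell and 6 were not called, where 13.2% of genes were called. Among those that fell was Scgb1a1, the club cell secretory protein (-3.68, adjusted p = 0.0106), and the summed intensity of the 9 was 24993 and 15312 after bleomycin against 41488 and 39667 after saline. Of 7 alveolar type 2 markers 3 fell, with sums of 24053 and 11336 against 36955 and 35044. In C57BL/6J 2 of 9 club cell markers fell, Cyp2b10 (-0.83) and Cckar (-1.10), but the sums overlapped, at 45704 and 29160 against 43075 and 21646, and 1 of 7 type 2 markers fell (7.74% of genes called). The part of these cells in the Gsta3 values was not tested.

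Gstt1, the theta-class enzyme that acts on small halogenated compounds, was lower at 14 d of bleomycin in C57BL/6J lungs. There it read 2045 and 2587 after saline and 1001 and 1636 after bleomycin, groups that did not overlap. Gstt1 fell by 0.80 ± 0.20 (adjusted p = 0.0200). In BALB/c lungs at 14 d it read 2357 and 2712 after saline and 2184 and 2865 after bleomycin, with the saline arrays inside the range of the bleomycin arrays and a difference of -0.01 ± 0.20 (adjusted p = 0.970). The strains' effects differed by -0.79 ± 0.28 (adjusted p = 0.0918), which did not pass the threshold. The C57BL/6J call was lost without bleomycin array a (-0.47, adjusted p = 0.315) or saline array b (-0.64, adjusted p = 0.159) and with array weights (adjusted p = 0.0689). The effect with the saline 24 h arrays as control was -0.43 (adjusted p = 0.167). Without C57BL/6J bleomycin 14 d array b the difference between strains was called (-1.12, adjusted p = 0.0128), as it was without BALB/c bleomycin 14 d array a (-0.97, adjusted p = 0.0471).

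At the earlier times no effect of bleomycin on Gstt1 was called. The C57BL/6J bleomycin arrays read 1527 and 1564 at 24 h and 1452 and 1522 at 72 h, and the BALB/c ones 1699 and 1557, then 2068 and 1956. The 24 h effects were -0.18 ± 0.20 in C57BL/6J and -0.25 ± 0.20 in BALB/c, and the 72 h mean was -0.12 ± 0.14. Averaged over 3 times of bleomycin, Gstt1 was lower in C57BL/6J than in BALB/c, with a difference of -0.47 ± 0.11 (adjusted p = 0.0132). That call was kept in all 24 fits that left out 1 array. After saline the strains differed by -0.14 ± 0.14 (adjusted p = 0.572). Whether the strain difference depends on treatment was tested only per time, and with all arrays that contrast was not called at 24 h or 14 d. Over all times and strains Gstt1 fell by 0.25 ± 0.08 (adjusted p = 0.0453). This call was kept in only 4 of those 24 fits and lost without the filter (0.0592) or the variance trend (0.0572). In BALB/c the change from 24 h to 14 d of bleomycin was 0.59 ± 0.20 (adjusted p = 0.0710).

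**Figure D2:**
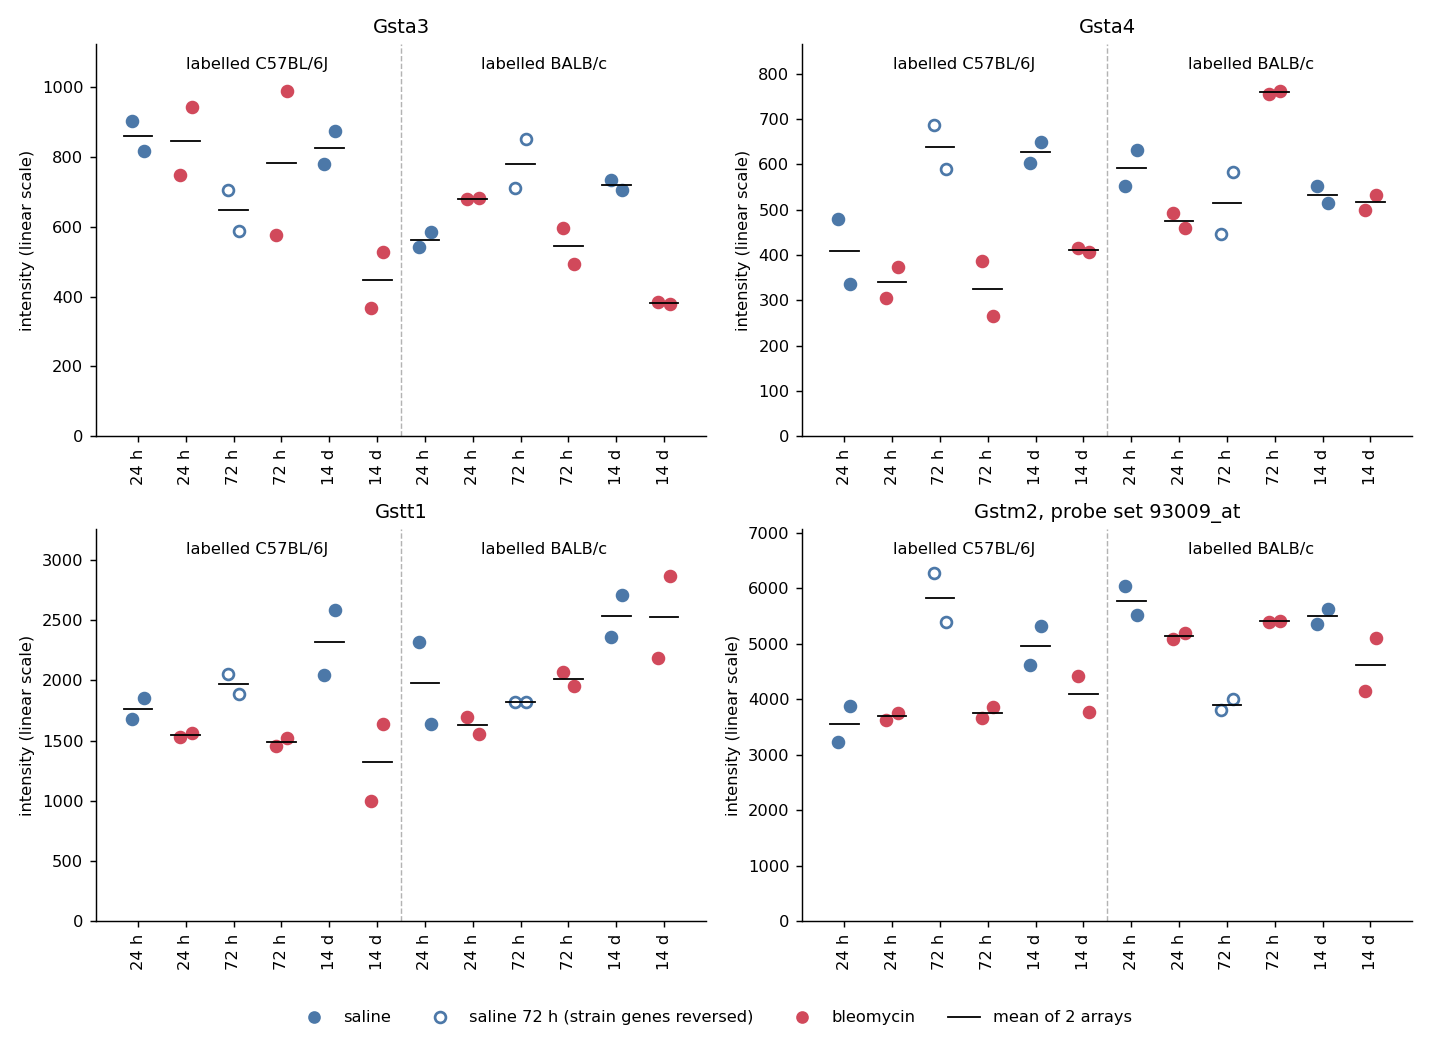
Intensity (linear scale, vertical axes from 0) of Gsta3, Gsta4, Gstt1 and Gstm2 (unmarked probe set) on each of the 24 arrays, with a line at the mean of 2 arrays and open symbols for saline 72 h. Gsta3 is lowest at 14 d of bleomycin in both strains (367 to 527), and the C57BL/6J group mean of Gstt1 is lowest there (arrays at 1001 and 1636).

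Gsta4, the alpha-class enzyme with a preference for 4-hydroxynonenal, a product of lipid peroxidation, was lower in C57BL/6J than in BALB/c lungs after bleomycin. In C57BL/6J the bleomycin arrays read 306 and 374 at 24 h, 386 and 264 at 72 h, and 415 and 406 at 14 d. In BALB/c they read 493 and 460, then 756 and 762, then 500 and 533. Every C57BL/6J bleomycin array was below every BALB/c one, with a difference of -0.57 ± 0.10 (adjusted p = 0.00123) that held in all 24 fits leaving out 1 array. After saline at 24 h and 14 d the strains differed by -0.13 ± 0.12 (adjusted p = 0.531), a mean of opposite orders. At 24 h Gsta4 read 480 and 337 in C57BL/6J against 553 and 632 in BALB/c, and at 14 d 604 and 649 against 553 and 514. Whether the strain difference depends on treatment was tested only per time, and that contrast was 0.07 ± 0.25 at 24 h (adjusted p = 0.970) and -0.47 ± 0.25 at 14 d (adjusted p = 0.256).

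Within C57BL/6J, Gsta4 read 604 and 649 after saline at 14 d against 415 and 406 after bleomycin, without overlap, and the difference of -0.51 ± 0.18 was not called (adjusted p = 0.0846). At 24 h it read 480 and 337 after saline against 306 and 374, which overlapped (-0.20 ± 0.18, adjusted p = 0.685), but with the saline 14 d arrays in place of the C57BL/6J saline 24 h arrays the 24 h difference was called (-0.74, adjusted p = 0.0167). At 72 h the mean effect over both strains was -0.16 ± 0.12 (adjusted p = 0.546). As labelled in C57BL/6J it read 687 and 589 after saline and fell by 0.82 ± 0.18 (adjusted p = 0.00857), which became -0.53 (adjusted p = 0.0510) without the saline 72 h arrays and -0.55 (adjusted p = 0.116) with their strain labels exchanged. That call was also lost without bleomycin 72 h array b (-0.61, adjusted p = 0.138) or saline 72 h array a (-0.72, adjusted p = 0.0785). In BALB/c the effect was -0.27 ± 0.18 at 24 h and -0.04 ± 0.18 at 14 d, and as labelled 0.50 ± 0.18 at 72 h (adjusted p = 0.253). The mean over all times and strains was -0.22 ± 0.07 (adjusted p = 0.0435), a call kept in 6 of the 24 fits that left out 1 array and lost without the filter (0.0626) or with array weights (0.0552).

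Heart muscle markers moved in part with Gsta4. Of 9 tested, 7 were lower in C57BL/6J than in BALB/c after bleomycin, where 11.7% of all probe sets tested were called in either direction. At 14 d 6 of the markers fell in C57BL/6J (7.43%) and none was called in BALB/c (13.3%). Their summed intensity at 14 d in C57BL/6J was 7838 and 10781 after bleomycin and 18309 and 17118 after saline, against 16104 and 16827 and 18574 and 18464 in BALB/c. The genes whose log2 values correlated most with Gsta4 over the 24 arrays were Myl4 (r = 0.80), Myh7 (0.79) and Myh6 (0.78), the atrial light chain and the cardiac myosin heavy chains, with 0.78, 0.77 and 0.78 on the 22 arrays without C57BL/6J saline 24 h. The sum ranged from 7505 to 21464 over the 24 arrays, while Myl2, Myl3 and Ryr2 of the list were too dim to be tested. The array with the highest sum, BALB/c saline 24 h array a, read 553 for Gsta4. BALB/c bleomycin 72 h array b read 762 for Gsta4 at a sum of 14622. The part of heart muscle in the Gsta4 values was not tested.

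**Figure D3:**
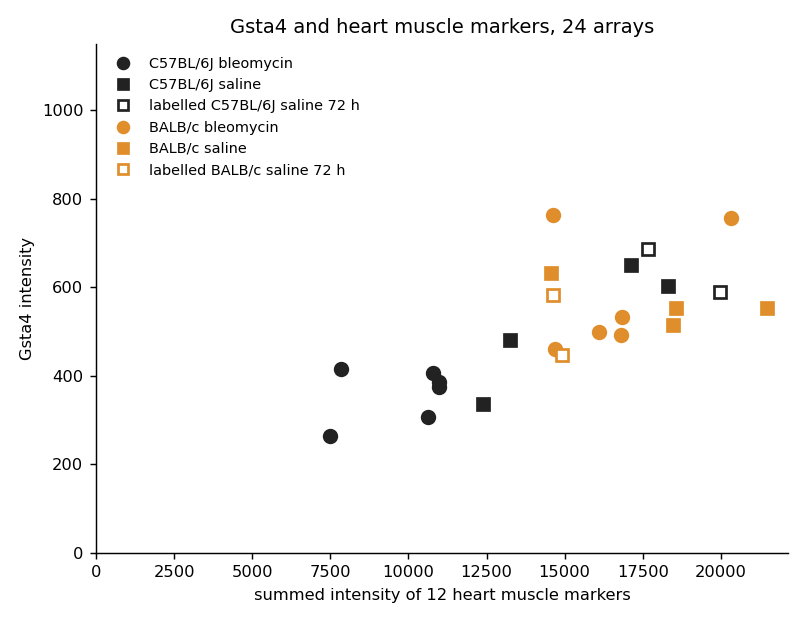
Gsta4 intensity (vertical axis, linear) against the summed intensity of 12 heart muscle markers (horizontal axis, linear) on the 24 arrays, 1 symbol per array, by strain and treatment. The C57BL/6J bleomycin arrays, with Gsta4 at 264 to 415, lie at the low end of both axes.

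Among the mu-class genes, which conjugate epoxides and other electrophiles and lie in a cluster on chromosome 3, Gstm2 was lower in C57BL/6J than in BALB/c lungs after bleomycin by its unmarked probe set. The C57BL/6J bleomycin arrays read 3624 and 3757 at 24 h, 3659 and 3851 at 72 h, and 4419 and 3763 at 14 d. The BALB/c ones read 5093 and 5196, then 5392 and 5412, then 4142 and 5099. The strains overlapped only at 14 d, and the difference was -0.38 ± 0.09 (adjusted p = 0.00681), kept in all 24 fits that left out 1 array. After saline it was -0.42 ± 0.10 (adjusted p = 0.0157), but without the 2 C57BL/6J saline 24 h arrays, which read 3224 and 3869, the difference, then of 14 d alone, was -0.15 (adjusted p = 0.523). It was also lost without BALB/c saline 14 d array b (adjusted p = 0.0635), BALB/c saline 24 h array a (0.0549), C57BL/6J saline 14 d array a (0.0712) or C57BL/6J saline 24 h array a (0.0675), and with quantile normalization (-0.39, adjusted p = 0.114).

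No effect of bleomycin on Gstm2 by the unmarked probe set was called at 24 h or 14 d in either strain, where the log2 differences ran from -0.28 to 0.06. The mean over both strains at 72 h was -0.08 ± 0.10 (adjusted p = 0.742). As labelled at 72 h it fell by 0.62 ± 0.15 in C57BL/6J (adjusted p = 0.0161), from 6267 and 5388 after saline to 3659 and 3851. Without the saline 72 h arrays that was -0.15 (adjusted p = 0.544), with their labels exchanged -0.05 (adjusted p = 0.910), and it was lost without C57BL/6J bleomycin 72 h array a or b or saline 72 h array a (adjusted p 0.0771 to 0.134) or with quantile normalization (0.0862).

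The other Gstm2 probe set, with the ending _r_at, gave another pattern. In BALB/c lungs at 14 d it read 2264 and 2131 after saline and 1408 and 635 after bleomycin, without overlap but with the bleomycin arrays far apart. It fell by 1.13 ± 0.29 (adjusted p = 0.0169). The call was lost without bleomycin array b (-0.61, adjusted p = 0.275), saline array a (-1.09, adjusted p = 0.106) or saline array b (-1.17, adjusted p = 0.0821), and with the saline 24 h arrays as control it was -0.87 (adjusted p = 0.0828). In C57BL/6J lungs at 24 h the same probe set read 941 and 796 after saline and 1631 and 2553 after bleomycin, a rise of 1.16 ± 0.29 (adjusted p = 0.0448). That call was kept in 12 of the 24 fits that left out 1 array, and with the saline 14 d arrays as control the difference was 0.86 (adjusted p = 0.102). It was also lost with quantile normalization (0.0764), no filter (0.0603) or no variance trend (0.0574). From 24 h to 14 d of bleomycin it fell by 1.03 ± 0.29 in C57BL/6J (adjusted p = 0.0337), lost without bleomycin 14 d array a (-0.84, adjusted p = 0.305) or bleomycin 24 h array b (-0.72, adjusted p = 0.274), with quantile normalization (0.0502) or with array weights (0.0695). After saline it was lower in C57BL/6J than in BALB/c, with a difference of -0.98 ± 0.20 (adjusted p = 0.00523), a call kept in all 24 such fits. The 2 Gstm2 probe sets correlated with r = 0.21 over the 24 arrays, a description of arrays that share scaling and groups.

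Gstm1 by its _f_at probe set read 19212 and 15061 on the C57BL/6J saline 24 h arrays and 3991 to 12790 on the other 22. At 24 h of bleomycin the C57BL/6J arrays read 6955 and 8438, well below the saline pair, and Gstm1 fell by 1.14 ± 0.28 (adjusted p = 0.0426). Against the C57BL/6J saline 14 d arrays, which read 9159 and 5050, the 24 h difference was 0.17 (adjusted p = 0.794), and with quantile normalization it was -0.18 (adjusted p = 0.838). The call was kept in 9 of the 24 fits that left out 1 array and lost without the filter (0.0634) or the saline 72 h arrays (0.0641). On the same saline pair the club cell markers summed to 109119 and 100287 and the alveolar type 2 markers to 161755 and 116125, against 27454 and 36945 and 22707 and 38533 after bleomycin at 24 h. Of these markers 2 of 9 and 3 of 7 fell, where 2.23% of all probe sets tested were called. Red blood cell markers summed to 69161.5 and 40671.3 against 5342.5 and 6799.0. The alveolar type 1, endothelial, fibroblast and smooth muscle, macrophage and heart muscle sums were also higher on both saline arrays. Those of lymphocyte, neutrophil, liver and adipocyte markers overlapped. The CreX 3′ spike control read 32222 and 20886 on the saline pair and 4629 to 17491 on the other arrays. The s1 ending of the titles and the C57BL/6J saline 24 h group cannot be told apart, since no other array carries it, and the part of these markers in the Gstm1 values was not tested.

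In BALB/c lungs Gstm1 by the _f_at probe set read 8951 and 9104 after saline at 14 d and 7154 and 3991 after bleomycin, lower on both bleomycin arrays, with a difference of -0.75 ± 0.28 that was not called (adjusted p = 0.0872). Without bleomycin array a it was called (-1.16, adjusted p = 0.0154). At 24 h in BALB/c the difference was -0.12 ± 0.28, in C57BL/6J at 14 d 0.17 ± 0.28, and at 72 h over both strains -0.44 ± 0.20 (adjusted p = 0.262). Over all times and strains this probe set fell by 0.45 ± 0.11 (adjusted p = 0.0131), which without the C57BL/6J saline 24 h arrays was -0.23 (adjusted p = 0.255) and with quantile normalization -0.19 (adjusted p = 0.249). Without the saline 72 h arrays the mean, then of 24 h and 14 d only, was -0.46 (adjusted p = 0.0670). The other Gstm1 probe set, an _r_at set, was lowest on the pair where the first was highest, at 515 and 405, and was not called in any comparison. At 24 h in C57BL/6J it differed by 0.79 ± 0.23 (adjusted p = 0.0901), the opposite sign of the first, but against the C57BL/6J saline 14 d arrays it differed by -0.067 (adjusted p = 0.916), so that direction turned on the same pair. Over the 24 arrays the 2 probe sets correlated with r = -0.37.

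Gstm5 was followed by 3 tested probe sets. By the unmarked set, which read 173 to 543, BALB/c lungs at 14 d gave 319 and 247 after saline and 480 and 475 after bleomycin, without overlap, a difference of 0.61 ± 0.25 that was not called (adjusted p = 0.114). By the _f_at set the same lungs gave 4421 and 4579 after saline and 3917 and 2702 after bleomycin, a difference of -0.46 ± 0.20 (adjusted p = 0.148) of the opposite sign. Neither was called in any comparison. The third, the _r_at set, ranged from 122 to 1106, and its standard error of 0.50 for an effect in 1 strain at 1 time was the largest among the members. After saline it was higher in C57BL/6J than in BALB/c by 1.15 ± 0.36 (adjusted p = 0.0453), a call kept in 13 of 24 fits that left out 1 array. Without the C57BL/6J saline 24 h arrays the difference, then of 14 d alone, was 0.96 (adjusted p = 0.172). The call was also lost with 3 times the offset (0.83, adjusted p = 0.0578), no filter (0.0633), no variance trend (0.0530), array weights (0.0884) or without the saline 72 h arrays (0.0517). In BALB/c at 24 h it read 122 and 193 after saline and 569 and 618 after bleomycin, without overlap, and the difference of 1.47 ± 0.50 was not called (adjusted p = 0.197). The pairs of the 3 tested Gstm5 probe sets correlated with r from -0.24 to 0.19.

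**Figure D4:**
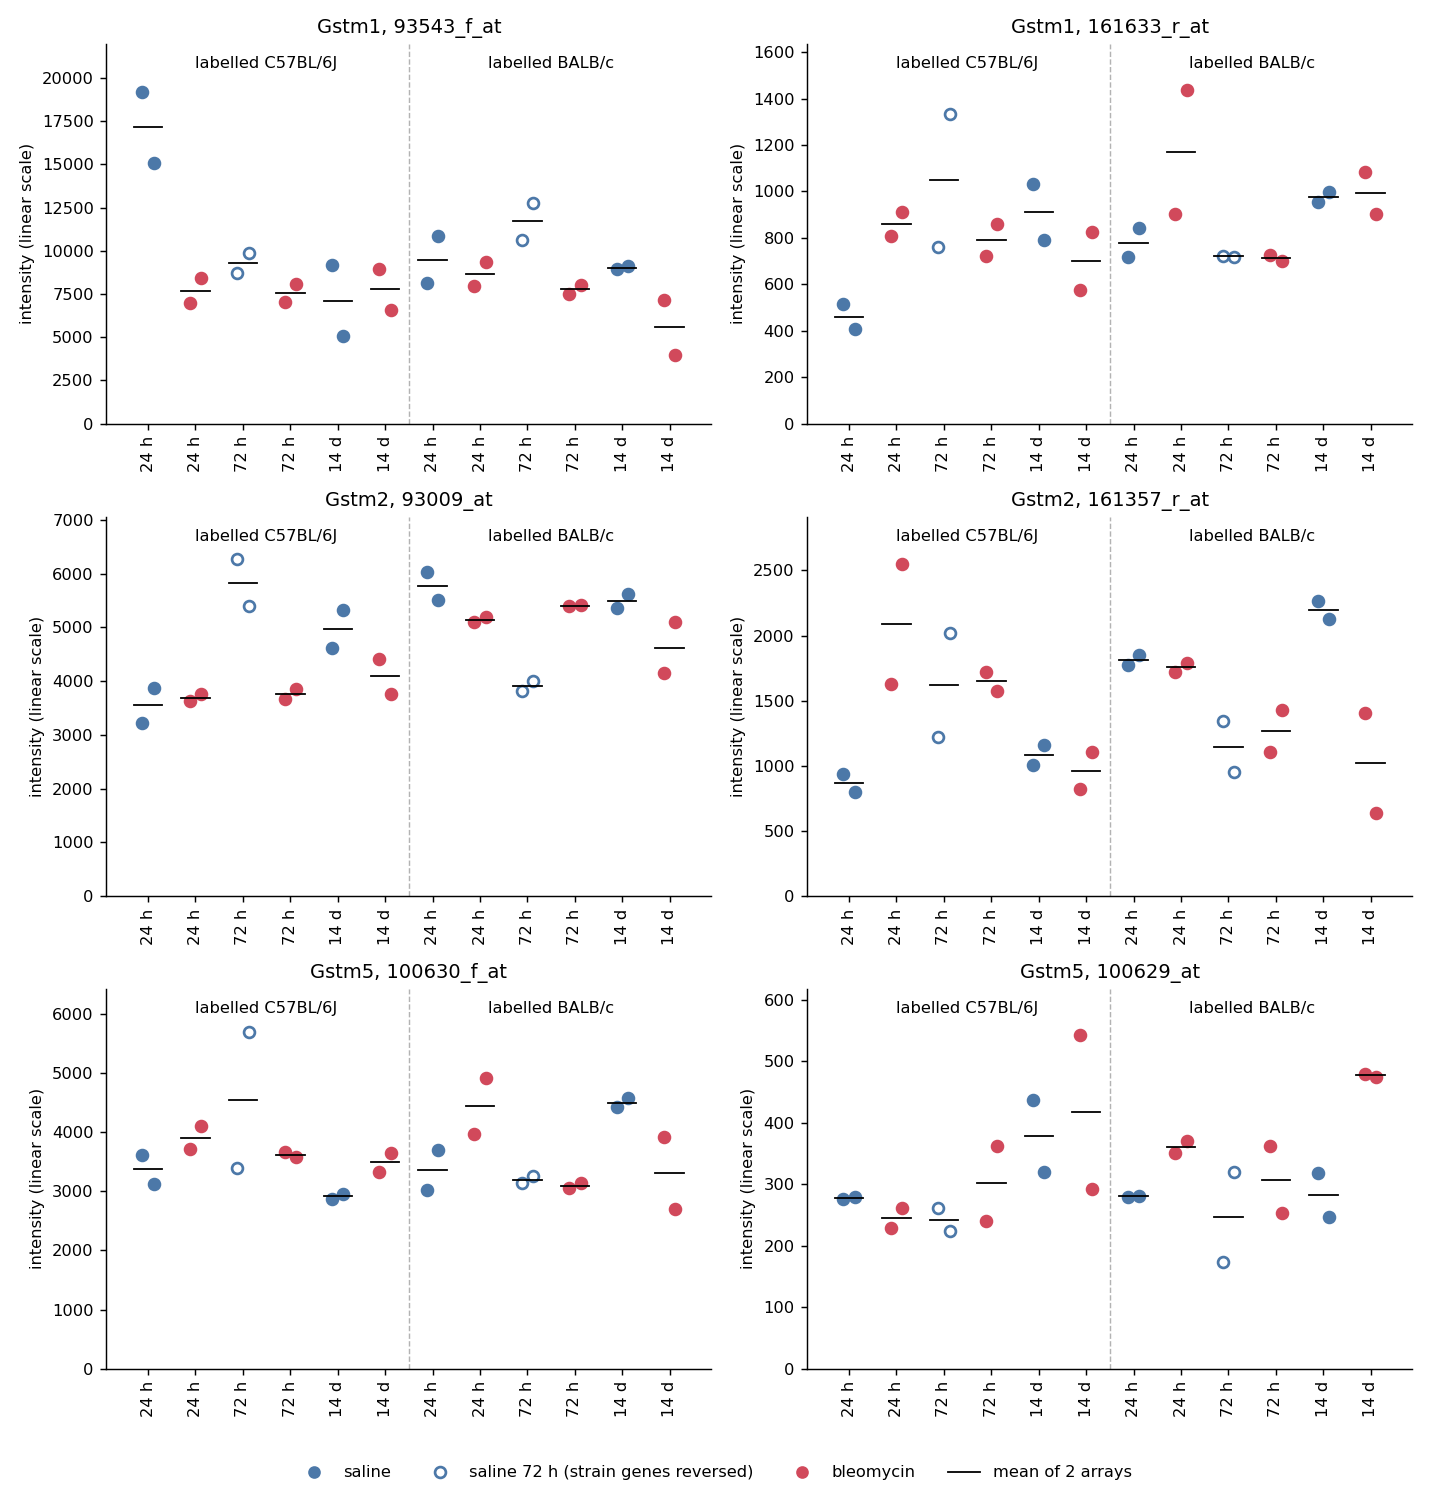
Intensity (linear scale, vertical axes from 0) of 6 probe sets of Gstm1, Gstm2 and Gstm5 on each of the 24 arrays, with a line at the mean of 2 arrays and open symbols for saline 72 h. The _f_at set of Gstm1 is highest on the C57BL/6J saline 24 h arrays (19212 and 15061), where its _r_at set is lowest (515 and 405).

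The counts of members called are here counts of the 11 member probe sets tested, so 1 gene can count more than once. They stand beside the share of all tested probe sets that was called in the same comparison. At 24 h in C57BL/6J 1 member rose and 1 fell, where 2.23% of the 8710 probe sets tested were called, and both rested on the C57BL/6J saline 24 h arrays. At 24 h in BALB/c no member was called by limma, where 0.218% of all were called. At an unadjusted limma p under 0.05 were 3 members and 1182 of the 8710 probe sets tested. At 72 h over both strains 1 member rose (3.21% of all called). As labelled at 72 h, 1 rose and 2 fell in C57BL/6J (6.61%) and 1 fell in BALB/c (1.32%). At 14 d 2 members fell in C57BL/6J (7.43%), and 1 rose and 2 fell in BALB/c (13.3%). Over all times and strains 1 rose and 4 fell (15.6%). Without the saline 72 h arrays the mean over strains covered 24 h and 14 d only, with fewer arrays. Of these 5, Gsto1 alone was then called (0.44, adjusted p = 0.00157). Gsta3 was at -0.34 (adjusted p = 0.0536), Gsta4 at -0.26 (adjusted p = 0.0847) and Gstt1 at -0.31 (adjusted p = 0.0808).

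The members' median log2 change was 0.06 at 24 h in C57BL/6J, against 0.04 over all tested probe sets, and 0.24 against 0.04 in BALB/c. At 14 d it was -0.16 against -0.07 in C57BL/6J and -0.04 against 0.04 in BALB/c. The difference between strains in the effect was called for no member at 24 h (0.023% of all called) and for Gsto1 alone at 14 d (7.43%). At 24 h limma gave 2 members and 840 of the 8710 probe sets tested an unadjusted p under 0.05. After bleomycin 1 member was higher and 3 were lower in C57BL/6J (11.7%). After saline 2 were higher and 2 lower (11.1%), and both of the lower ones were probe sets of Gstm2. From 24 h to 14 d of bleomycin 2 members fell in C57BL/6J (8.67%) and 1 in BALB/c (7.66%).

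**Figure D5:**
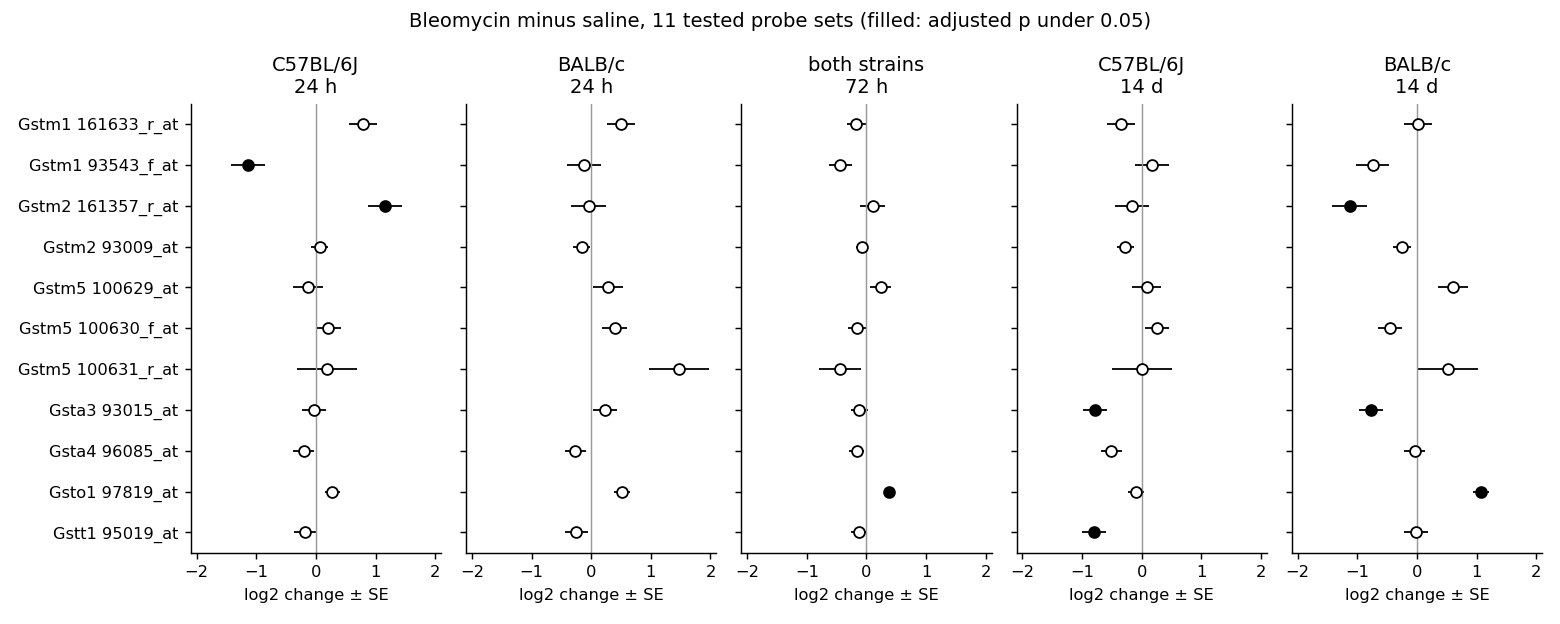
Log2 change (bleomycin minus saline, horizontal axes) with its standard error for the 11 tested probe sets at 24 h and 14 d in each strain and at 72 h over both strains, with filled circles where the adjusted p was under 0.05. At 14 d Gsta3 lies at -0.78 in both strains, Gstt1 at -0.80 in C57BL/6J and Gsto1 at 1.08 in BALB/c.

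The remaining glutathione transferases and the related membrane enzymes were followed by 12 genes. Of these 1 fell at 14 d in C57BL/6J, where 7.43% of all probe sets tested were called. It was Gstm3 (an _f_at probe set), another mu-class gene, which read 2455 and 2035 after saline and 1278 and 1550 after bleomycin (-0.63, adjusted p = 0.0345). It was called in 21 of 24 fits that left out 1 array. None was called by limma at 24 h in either strain, where 2.23% of all in C57BL/6J and 0.218% in BALB/c were called. Nor was any at 14 d in BALB/c (13.3% of all called) or at 72 h over both strains (3.21%). Over all times and strains, where 15.6% of all were called, Gstm3 (-0.39, adjusted p = 0.00153) and Gstz1, the zeta enzyme of tyrosine breakdown (-0.28, adjusted p = 0.0216), fell, and Ptges, a prostaglandin E synthase, rose (0.32, adjusted p = 0.0249). Without the saline 72 h arrays, over 24 h and 14 d only, Gstm3 kept its call (-0.46), while Gstz1 (-0.20, adjusted p = 0.220) and Ptges (0.20, adjusted p = 0.319) did not. Gsta2, another alpha-class gene, read 2383 and 1965 at 24 h of bleomycin in BALB/c lungs and 592 and 399 at 14 d, a change of -1.96 (adjusted p = 0.00122). Gstk1, the kappa-class enzyme, fell over the same interval in C57BL/6J (-0.91, adjusted p = 0.00614), from 3124 and 2518 to 1294 and 1616.

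Of 21 genes that make or use glutathione, 2 rose at 24 h in C57BL/6J, where 2.24% of genes were called: Gclc, the catalytic subunit of the rate-limiting enzyme of glutathione synthesis, by 1.29 (adjusted p = 8.75e-04), and Gpx2, a glutathione peroxidase, by 1.11 (adjusted p = 0.0413). Gclc read 1292 and 1788 after saline and 3948 and 3758 after bleomycin, without overlap, and kept its call in all 24 fits that left out 1 array, while Gpx2 kept it in 11. Against the C57BL/6J saline 14 d arrays Gclc (0.93) and Gpx2 (1.04) were still called. At 72 h over both strains Gclc (0.85, adjusted p = 0.00136) and the glutaredoxin Glrx (0.41, adjusted p = 0.0447) rose, and without the saline 72 h arrays these were 0.43 (adjusted p = 0.0259) and 0.28 (adjusted p = 0.0723). At 14 d in BALB/c Gpx4 (0.67), Gpx7 (0.66) and Glrx (0.47) rose and the glutathione synthetase Gss fell (-1.47, adjusted p = 0.0225), from 806 and 830 to 232 and 241. Gss kept its call with the saline 24 h arrays as control (-1.86, adjusted p = 0.0112) and Gpx4 (0.37), Gpx7 (0.22) and Glrx (0.29) did not. Of 24 fits that left out 1 array, Gss was called in 20, Gpx4 and Gpx7 in 21 and Glrx in 6. At 14 d in C57BL/6J the dipeptidase Dpep1 fell (-1.05, adjusted p = 0.00321) and 20 were not called, where 7.43% of all probe sets tested were called.

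Among 29 genes of the Nrf2 pathway and its other known targets, 5 rose and 4 fell over all times and strains, where 16.0% of genes were called. The aldo-keto reductase Akr1b8 rose by 0.81 (adjusted p = 1.91e-05) and the thioredoxin reductase Txnrd1 by 0.45 (adjusted p = 4.05e-04). At 72 h over both strains 3 rose, where 3.21% of all probe sets tested were called. They were Akr1b8 (0.79), Txnrd1 (0.52) and Nfe2l2, which encodes Nrf2 (0.43, adjusted p = 0.0407). Leaving out 1 array, Akr1b8 was called in 22, Txnrd1 in 19 and Nfe2l2 in 12 of 24 fits. Akr1b8 kept its call without the saline 72 h arrays (1.07, adjusted p = 3.28e-04), and Txnrd1 (0.24, adjusted p = 0.112) and Nfe2l2 (0.23, adjusted p = 0.139) did not. At 14 d 2 rose and 3 fell in C57BL/6J (7.43% of all probe sets tested called), and 1 rose and 2 fell in BALB/c (13.3%). Nfe2l2 was among those that fell in C57BL/6J (-0.57, adjusted p = 0.0321, called in 21 of 24 fits that left out 1 array, and -0.27, adjusted p = 0.273, against the saline 24 h arrays). None of the 29 was called by limma at 24 h in either strain (2.23% of all probe sets tested called in C57BL/6J and 0.218% in BALB/c).

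Of 17 phase I and other xenobiotic enzymes, which act before glutathione conjugation, 4 fell and none rose at 14 d in C57BL/6J, with a median of -0.52 against -0.07 over all genes, of which 7.74% were called in either direction. They were Cyp1a1 (-1.21), Fmo1 (-1.02), Fmo5 (-0.97) and Cyp2b10 (-0.83). In BALB/c at 14 d 2 fell, Cyp2b10 (-0.75, adjusted p = 0.0355) and Arnt (-0.71), with a median of -0.07 against 0.06 (13.2% of genes called). Cyp1a1, a target of the aryl hydrocarbon receptor, fell over all times and strains by 1.22 (adjusted p = 1.32e-06). At 24 h in C57BL/6J it read 738 and 432 after saline and 101 and 113 after bleomycin, and at 14 d 849 and 976 against 227 and 497, without overlap at either time. Against the C57BL/6J saline 14 d arrays its 24 h change was -2.33 (adjusted p = 7.00e-05). With the saline 24 h arrays as control at 14 d, Cyp1a1 (-0.61, adjusted p = 0.130), Fmo5 (-0.54, adjusted p = 0.175) and Cyp2b10 (-0.63, adjusted p = 0.0764) lost their C57BL/6J calls and Fmo1 did not (-1.42). Of 24 fits that left out 1 array, each of the 4 C57BL/6J calls at 14 d and both in BALB/c held in 21 or 22. The sizes moved with single arrays, from -1.65 to -0.40 for Fmo1 and from -1.65 to -0.77 for Cyp1a1 in C57BL/6J.

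The members did not move as 1 group. Over the 24 arrays, with the brightest probe set of each gene, log2 values correlated most between Gstm2 and Gsta4 (r = 0.72) and were most opposed between Gstm2 and Gsto1 (-0.70), which differed between the strains in opposite directions. Gsto1 and Gstt1 gave -0.59, Gstm1 and Gsta3 0.43, and Gsta3 and Gstt1 -0.01. The 24 arrays share strains, treatments and scaling, so these values describe them and carry no test.

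The genes most like each member over the 24 arrays, by Pearson correlation of log2 values, were Atp6v1d (0.87), Chmp2a (0.87) and Gas5 (0.86) for Gsto1, and Enpep (0.89), Galnt4 (0.86) and Nsmce4a (0.85) for Gstt1. For Gsta3 they were Acvrl1 (0.79), Efnb1 (0.77) and Norad (0.71), the lowest values among the members. For Gstm2 they were Baiap2l1 (0.86), Tnnt2, cardiac troponin T (0.85) and Glo1, a glyoxalase (0.85), and for Gstm5 by its _f_at set Rhoc (0.89), Cog1 (0.85) and Pdlim1 (0.85). For Gstm1 by its _f_at set Cst3 (0.93), Gsn (0.93) and Ahnak (0.92) gave 0.91, 0.89 and 0.89 on the 22 arrays without the C57BL/6J saline 24 h pair. On those 22 arrays the values of the others moved by little, Atp6v1d to 0.87 and Acvrl1 to 0.76.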

How the data were processed

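Lung RNA of 12 groups was measured on 24 single-sample arrays, and groups came from the sample titles. Per the labels these were Affymetrix murine arrays, for which the authors deposited 1 linear intensity for each probe set on each array. The sources used here do not state which algorithm summarised the probes. Trimmed means of 799.87 to 799.94 on every array point to scaling to a common level before deposit, inferred from the values. Median intensities were 314 to 409, and across probe sets the 2 arrays within a group had an r of 0.959 to 0.985 on the log2 scale.

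After the 66 control probe sets of 12488 were left out, 92 (the median lower quartile) was added and log2 taken. The 8710 probe sets that exceeded 225.7 (percentile 40 of all values) on at least 2 arrays were tested with limma 3.58.1 in R 4.3.3, with a mean for each group, 12 residual degrees of freedom, a variance trend, two-sided tests and Benjamini-Hochberg adjustment over all probe sets, called at an adjusted p under 0.05. The procedure was tested on simulated data. There were 14 comparisons. Gene names came from the platform annotation and RefSeq, where 10817 of 10833 single-name probe sets matched.

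The members and the 16 gene lists were chosen with earlier results of these data known. Outside the members, the text names up to 4 called genes of smallest p in each of the first 4 lists (1 probe set per gene), the 3 genes most correlated with each member, and markers. Alternatives were quantile normalization, offsets of 46 and 276, no filter or one at percentile 60, weights per array, no trend, a block for the array letter, leaving out the saline 72 h arrays, exchanging their strain labels, leaving out the C57BL/6J saline 24 h arrays or the brightest probe sets, and leaving out each array in turn. Without the saline 72 h arrays, 72 h effects took the mean of the strain's 24 h and 14 d saline groups as control. The mean over all times then covered 24 h and 14 d only. Without the C57BL/6J saline 24 h arrays, the C57BL/6J saline 14 d arrays were the control at 24 h. The strain difference after saline was then that at 14 d alone. The saline 24 h arrays as control at 14 d were added after seeing the data. Deviations of arrays with the same letter from their group means correlated with r of -0.28 to 0.31 (median 0.01) over 66 pairs of groups. Of these, 14 were above 0.1. The main fit did not use the letters as pairs, and whether they pair arrays in some of the groups is not known.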

Additional observations from a re-analysis of the deposited data

Results flagged for a closer look

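The effect of bleomycin on Gsto1 at 14 d differed between the strains by the test of that difference itself, an interaction contrast, with a value of -1.18 on the log2 scale (C57BL/6J minus BALB/c, limma adjusted p = 0.00305). Both BALB/c bleomycin arrays were above both saline arrays, while the C57BL/6J groups overlapped. The call held with each of the 24 arrays left out in turn, from -1.26 to -1.09, and was -0.15 (adjusted p = 0.702) with the saline 24 h arrays as the control.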

How the results depend on the processing

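Directions turned in 6 cases in which the value was called before or after the change, and signs of values never called turned in further cases. Without the saline 72 h arrays Gsto1 in BALB/c at 72 h was 0.96 and Glo1 in C57BL/6J at 72 h 0.045, and with the strain labels exchanged Gsto1 in BALB/c was 0.61. Without the C57BL/6J saline 24 h arrays Gstm1 (the _f_at set) at 24 h was 0.17. With the saline 24 h arrays as control at 14 d Gstm1 in C57BL/6J was -1.14 (from 0.17, and then called) and Taldo1 in BALB/c -0.066. The cause was not tested.

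Of the 11 member probe sets tested, 2 were called at 24 h in C57BL/6J. That number became 0 with quantile normalization or no filter. It became 1 without a trend, without the saline 72 h, C57BL/6J saline 24 h or brightest values. Array weights gave 0 at 14 d in C57BL/6J (from 2), 2 at 72 h in BALB/c (from 1), 3 over all times (from 5) and 0 for both time changes (from 2 and 1). At 72 h in C57BL/6J 3 became 0 without the saline 72 h arrays or with exchanged labels. At 72 h in BALB/c 1 became 0 with quantile normalization, no filter, no trend, exchanged labels or without the C57BL/6J saline 24 h arrays. Over all times 5 became 3 without the filter and 1 without the saline 72 h arrays, where the mean covered 24 h and 14 d only. After saline 4 strain differences became 2 without the C57BL/6J saline 24 h arrays, where 14 d alone was compared. With the saline 24 h control 3 in BALB/c at 14 d and 1 strain difference in the effect became 0. The change with time went from 2 to 1 in C57BL/6J and from 1 to 3 in BALB/c with quantile normalization, and to 0 in BALB/c without the filter.

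With 1 array left out the number called ran from 0 to 2 at 24 h and at 14 d in C57BL/6J, 0 to 0 at 24 h and 1 to 5 at 14 d in BALB/c, and 0 to 1 at 72 h over both strains. As labelled at 72 h it was 1 to 3 in C57BL/6J and 0 to 1 in BALB/c, and over all times 2 to 5. It was 0 to 0 for the 24 h and 1 to 5 for the 14 d difference in effect, 4 to 5 for strain after bleomycin, 2 to 4 after saline, and 0 to 3 for time in each strain.

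With the array letter as a replicate block the members called were 1 at 24 h in C57BL/6J, where the _r_at set of Gstm2 was lost (adjusted p = 0.0535), and 0 at 72 h in BALB/c, where Gsto1 was lost (0.0668). Gsta4 over all times was lost too (0.0523). No other member's call was lost with the block. Only 2 arrays a group limit all of these calls.

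The number of all probe sets called moved by over 1.5 times as follows. At 24 h in C57BL/6J 194 became 121 with quantile normalization, 126 without the brightest probe sets and 460 without the C57BL/6J saline 24 h arrays, and in BALB/c 19 became 34 with quantile normalization, 12 without the filter, 10 without the saline 72 h arrays and 29 without the C57BL/6J saline 24 h arrays. The 2 called for the 24 h strain difference in effect became 3 to 15 under 8 settings. Array weights gave 175 (from 647) at 14 d in C57BL/6J, 150 (from 647) for the 14 d difference in effect, 651 (from 280), 942 (from 576) and 252 (from 115) at 72 h, and 406 (from 755) and 303 (from 667) for time. Without the saline 72 h arrays 72 h gave 1073 over both strains and 526 in BALB/c, and all times, then 24 h and 14 d only, 732 (from 1356). With exchanged labels 72 h gave 226 in C57BL/6J and 7 in BALB/c. With the saline 24 h control 14 d in BALB/c gave 504 (from 1158) and the difference in effect 217.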
